A study of Mus musculus with 9 samples.

Results

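The subject is 9 genes for HECT-domain ubiquitin ligases, the relatives of Ube3a, measured in the hippocampus of a mouse model of Angelman syndrome. They were chosen by gene name from the 54532 genes of the count table: Nedd4, Nedd4l, Itch, Herc1, Herc2, Huwe1, Ube3b, Ube3c and Trip12. HECT ligases are the last enzymes of the ubiquitin chain. They take ubiquitin from a conjugating enzyme onto a cysteine of their own C-terminal HECT domain and pass it to the substrate, which marks it for degradation or for sorting. The family is named after the C terminus of E6-AP, the product of Ube3a, whose maternal loss causes Angelman syndrome, and several of the genes described here are themselves known for neurodevelopmental disorders.

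All mice were N4 Ube3am-/p+, so that the controls carried the maternal Ube3a deletion as well, and no wild-type library was analysed here. The N4 line came from F1 Ube3atm1alb/J mice bred back onto 129Sv/Ev. Of the 9 mice, 5 received Ant-134, an antagomir (a chemically modified antisense oligonucleotide) against miR-134, and 4 received a scrambled oligonucleotide (Scr). Each was given 0.5 nmol into the cerebral ventricle at postnatal day 21. Each then received a sound stimulus meant to evoke (audiogenic) seizures on postnatal days 22, 24 and 26, and was killed 24 h after the last. Each library was made from poly-A RNA of 1 ipsilateral hippocampus of 1 mouse. The comparison asks whether ligase transcripts differed between Ant-134 and Scr after repeated sound stimuli. The paper reports less severe audiogenic seizures with Ant-134 and a tendency to better survival. Effects of the treatment and of a differing seizure burden or survival cannot be told apart here.

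The libraries held from 28583298 to 41978113 counts. Of the 6 markers of hippocampal fields and the 7 neuronal markers listed, none was at 0 in any library. Summed levels of 5 choroid plexus markers ranged from 67.4 to 2564 CPM (counts scaled to the size of each library, after TMM) in Ant-134 and from 79.2 to 2024 in Scr. The 6 microglial markers summed to between 296 and 337 CPM in Ant-134 and to between 346 and 394 CPM in Scr. The 4 meningeal fibroblast markers summed to 71.7 to 133 CPM in Ant-134 and 113 to 150.4 CPM in Scr, and the 5 endothelial markers to 148 to 187 CPM and 163 to 214 CPM. Ube3a itself stood at 90.2 ± 6.26 CPM (SD, n = 5) in Ant-134 and at 92.4 ± 4.81 CPM (SD, n = 4) in Scr, a log2 fold change of -0.034 (SE 0.054, unadjusted edgeR p = 0.541; exact permutation p = 0.571). These Ube3a counts cannot show the deletion, because every mouse carried it, and the exons of Ube3a overlap opposite-strand transcripts whose reads may not have been separated. Fewer cells of a type and less RNA per cell cannot be told apart in such tissue libraries.

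The sequences that bear on the treatment are the mature miR-134 and the places in the ligase transcripts that its seed could pair with. miR-134-5p, from RefSeq for GRCm38.p6 at chr12:109734145-109734166 on the plus strand, is printed 5′ to 3′ with its seed, bases 2 to 8, in capitals.

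mmu-miR-134-5p: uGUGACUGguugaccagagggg

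A site was a match to CAGTCAC or to AGTCACA on the transcribed strand of the longest 3′ UTR that GENCODE release M21 annotates for a protein-coding transcript. The string CAGTCACA holds both. Of the 9 ligases, 3 held a site (33.3%): Itch, Nedd4 and Ube3c. Among the 15278 tested genes with an annotated 3′ UTR the share was 19.5%, and among the 11089 with a 3′ UTR as long as those of the ligases it was 22.1%. The 4 sites are shown with flanking bases on GRCm38, all on the plus strand, with the matching letters in capitals.

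Itch, chr2:155225366-155225395: tgcagactctgCAGTCACAacagcgtccag

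Nedd4, first site, chr9:72748033-72748062: cttcacgcttgCAGTCACgtagtacatacg

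Nedd4, second site, chr9:72749492-72749521: ggggcattgtggAGTCACAttcacgaaaca

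Ube3c, chr5:29674709-29674738: ttatcgtgacatAGTCACAtacatagatgg

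Itch was the only one of the 9 ligases with the longer string CAGTCACA. Ube3a held no site in its longest annotated 3′ UTR, of 6606 bases. Its other 3′ UTRs were not scanned. The paper cites a reported miR-134 site in the transcript Ube3a1, and whether the UTR scanned here belongs to Ube3a1 was not examined. Of the 18 other HECT genes examined, 6 held at least 1 site. A match describes these letters and is not evidence of binding. Mature miR-134 was not analysed here, since these are counts of poly-A genes.

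Between the treatments, the ligases differed by little in either direction. Of the 9 genes 0 passed an unadjusted p of 0.05 by the quasi-likelihood test of edgeR, against 827 of 19782 genes tested (4.18%), of which 294 were higher and 533 lower in Ant-134. DESeq2, run without a filter, also called 0 of the 9, against 1027 of 37435 genes (2.74%), with unadjusted p values from 0.214 to 0.969. After Benjamini-Hochberg adjustment over all genes edgeR called 0 of 19782, with a smallest adjusted p of 0.0900, and DESeq2 called 16 genes, 0 of them among the ligases. The ranges of the treatments overlapped for all 9 ligases, and 305 of all tested genes (1.54%) had ranges that did not overlap.

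The log2 fold changes of the 9 ligases ran from -0.058 to 0.052, with 4 above 0 and 5 below and a median of -0.0075. The median over all tested genes was 0.0026. The median size without regard to sign was 0.022 for the ligases, 0.034 for the 3727 tested genes within the same range of mean CPM and 0.068 for all tested genes. These ligases are well counted, at 1620 to 19118 counts per library. Counting error alone amounted to 0.811% to 2.21% of the level. The coefficient of variation between mice of the same treatment, pooled over both treatments, was 3.46% to 8.68%. The 95% confidence interval of each gene is given with its values below, and a p that missed the threshold leaves the changes inside that interval possible.

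**Figure D1:**
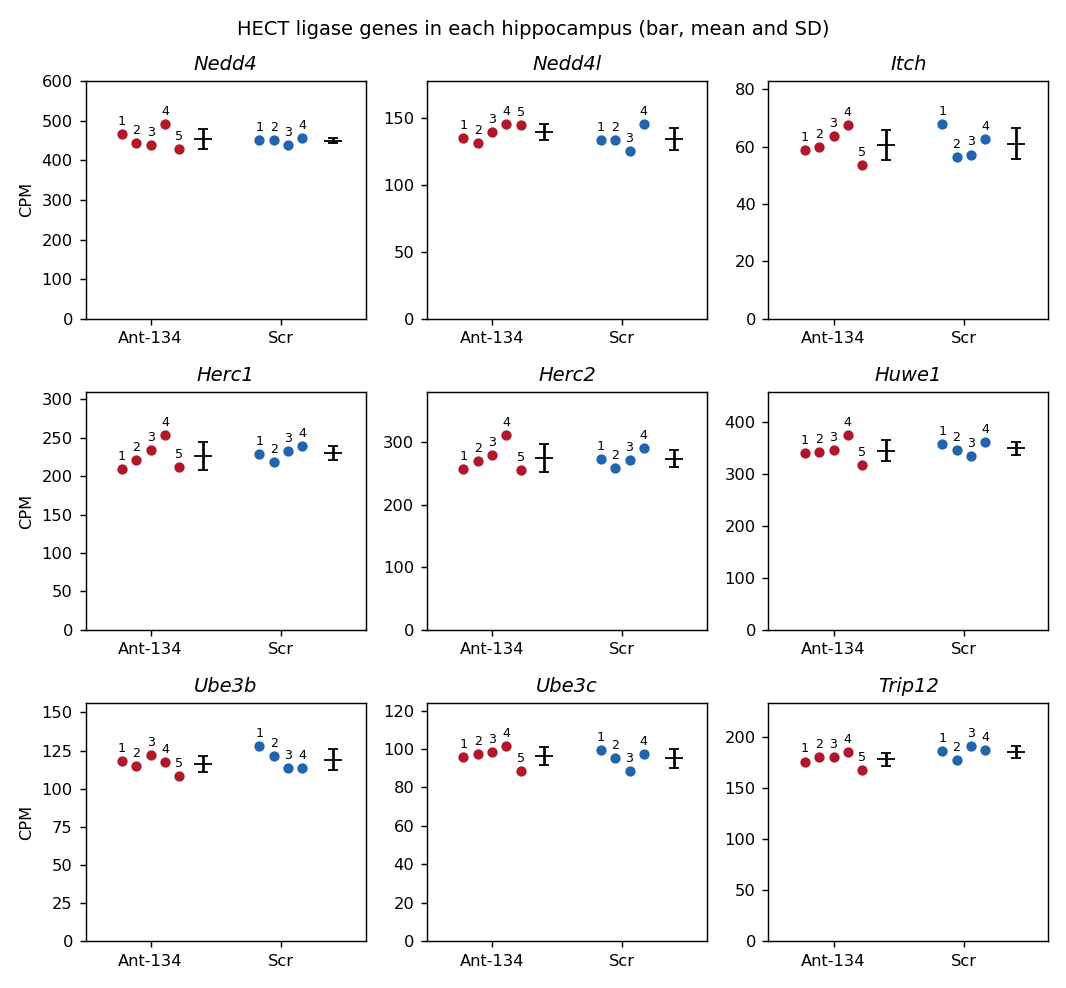
Level of each of the 9 ligase genes in CPM (vertical axis, starting at 0) in every Ant-134 mouse (red) and Scr mouse (blue), numbered by replicate, with the mean and SD of each group beside the points. The 2 groups overlap in all 9 panels, and Ant-134 mouse 4 holds the highest value of 5 genes while Ant-134 mouse 5 holds the lowest of 6.

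Nedd4, Nedd4l and Itch belong to the Nedd4 family, which joins a lipid-binding C2 domain and substrate-binding WW domains to the HECT domain. Nedd4 (ENSMUSG00000032216, chr9:72662346-72749852, plus strand) is known for the ubiquitination of receptors and channels at the membrane, AMPA receptors of neurons among them. Nedd4 measured 467, 443, 438, 492 and 428 CPM in Ant-134 mice 1 to 5 and 453, 452, 439.9 and 456 CPM in Scr mice 1 to 4. The 4 Scr values lay inside the span of the Ant-134 values. The log2 fold change was 0.011 (SE 0.046), a change of 0.771% with a 95% confidence interval from -5.88% to 7.89% (unadjusted p = 0.813 in edgeR and 0.889 in a two-sided exact permutation test over all splits of the 9 mice).

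Nedd4l (ENSMUSG00000024589, chr18:64887705-65217831, plus strand), best known for the removal of the epithelial sodium channel from the membrane, had the most positive difference of the 9 in the edgeR fit to all 9 mice. Its levels were 135, 132, 139.7, 146 and 145 CPM in the Ant-134 mice and 133, 133, 125 and 146 CPM in the Scr mice. Of the Ant-134 mice, 4 of 5 lay above the Scr mean, yet the highest value of all belonged to Scr mouse 4. The log2 fold change of 0.052 (SE 0.050) was a change of 3.68% with a 95% interval from -3.65% to 11.6% (edgeR p = 0.309; exact permutation p = 0.365). Exons of Nedd4l overlap the opposite-strand gene A330084C13Rik, and reads of the pair may not have been separated.

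Itch (ENSMUSG00000027598, chr2:155133509-155226855, plus strand) is the ligase that is lost in the itchy mouse and that degrades JunB in T cells. It was counted at 59.0, 59.9, 63.6, 67.4 and 53.6 CPM with Ant-134 and at 68.0, 56.3, 57.3 and 62.6 CPM with Scr. The spread among mice was the widest of the 9 genes, with the highest level 1.27 times the lowest, and each group held high and low mice. The difference was -0.521% with a 95% interval from -10.3% to 10.3% (edgeR p = 0.915; exact permutation p = 0.921).

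Herc1, Herc2 and Huwe1 encode the giants of the family. The longest annotated proteins have 4859 residues for Herc1, 4836 for Herc2 and 4378 for Huwe1, against 870 for Ube3a. Herc1 (ENSMUSG00000038664, chr9:66350450-66508775, plus strand) carries RCC1-like repeats, and its mutation causes Purkinje cell loss in the tambaleante mouse. Herc1 stood at 210.0, 221, 234, 254 and 212 CPM in the Ant-134 mice and at 229, 219, 233 and 239.5 CPM in the Scr mice. Both the highest mouse and the lowest mouse had received Ant-134. The log2 fold change was -0.025 (SE 0.056), or -1.71% with a 95% interval from -9.51% to 6.76% (edgeR p = 0.662; exact permutation p = 0.667). Its exons overlap Fbxl22 and Gm28379 on the opposite strand.

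Herc2 (ENSMUSG00000030451, chr7:56050196-56231800, plus strand) binds the Ube3a protein and stimulates its ligase activity. The end of Herc2 lies 3.00 Mb before the start of Ube3a on the same chromosome. Values were 257, 271, 280.4, 312 and 256 CPM in Ant-134 and 274, 259, 273 and 291 CPM in Scr. As for Herc1, Ant-134 mouse 4 was the highest of all and the other values interleaved. The change of 0.462% had a 95% interval from -7.85% to 9.52% (edgeR p = 0.911; exact permutation p = 0.952).

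Huwe1 (ENSMUSG00000025261, chrX:151800807-151935417, plus strand) targets Mcl1 and p53, among others, and is known for X-linked intellectual disability. The Ant-134 mice had 340.5, 342, 346, 375 and 317 CPM and the Scr mice 357, 345, 333 and 361 CPM. The difference was -1.49% with a 95% interval from -8.40% to 5.94% (edgeR p = 0.666; exact permutation p = 0.635). Since Huwe1 lies on the X chromosome, it was also set against 4 Y-linked genes, whose summed level was 0.352 to 1.21 CPM in 3 libraries and 178 to 198 CPM in the other 6. Huwe1 ranged from 333 to 375 CPM in the former and from 317 to 361 CPM in the latter, so that these ranges overlapped too.

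Ube3b and Ube3c are named in 1 series with Ube3a. Ube3b (ENSMUSG00000029577, chr5:114380607-114421169, plus strand), whose human counterpart is mutated in Kaufman oculocerebrofacial syndrome, measured 118, 115, 122, 118 and 109 CPM in Ant-134 and 128, 121, 114 and 113 CPM in Scr. Only 1 of the 5 Ant-134 mice was above the Scr mean, but 3 of the 4 Scr mice fell within the range of the Ant-134 values. The change was -2.33% with a 95% interval from -9.07% to 4.92% (edgeR p = 0.493; exact permutation p = 0.540).

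Ube3c (ENSMUSG00000039000, chr5:29569242-29676092, plus strand) works at the proteasome, where it extends ubiquitin chains on substrates that are being degraded. It had 95.9, 97.5, 98.6, 102 and 88.6 CPM with Ant-134 and 99.5, 95.4, 88.3 and 97.3 CPM with Scr. A low mouse was present in each group, Ant-134 mouse 5 and Scr mouse 3. The change was 1.37% with a 95% interval from -5.65% to 8.91% (edgeR p = 0.691; exact permutation p = 0.651).

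Trip12 (ENSMUSG00000026219, chr1:84721189-84840516, minus strand) degrades ubiquitin-fusion and Arf proteins, and its human counterpart is known for intellectual disability. In the edgeR fit to all 9 mice it had the most negative difference and the smallest p of the 9. The levels were 176, 180.5, 180.5, 185 and 168 CPM in Ant-134 and 186, 177, 191 and 187 CPM in Scr. The lowest mouse had received Ant-134 and the 3 highest Scr, while Scr mouse 2 lay below 3 of the Ant-134 mice. The log2 fold change was -0.058 (SE 0.042), a change of -3.96% with a 95% interval from -9.77% to 2.23% (edgeR p = 0.188; exact permutation p = 0.127), and it did not pass the threshold.

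**Figure D2:**
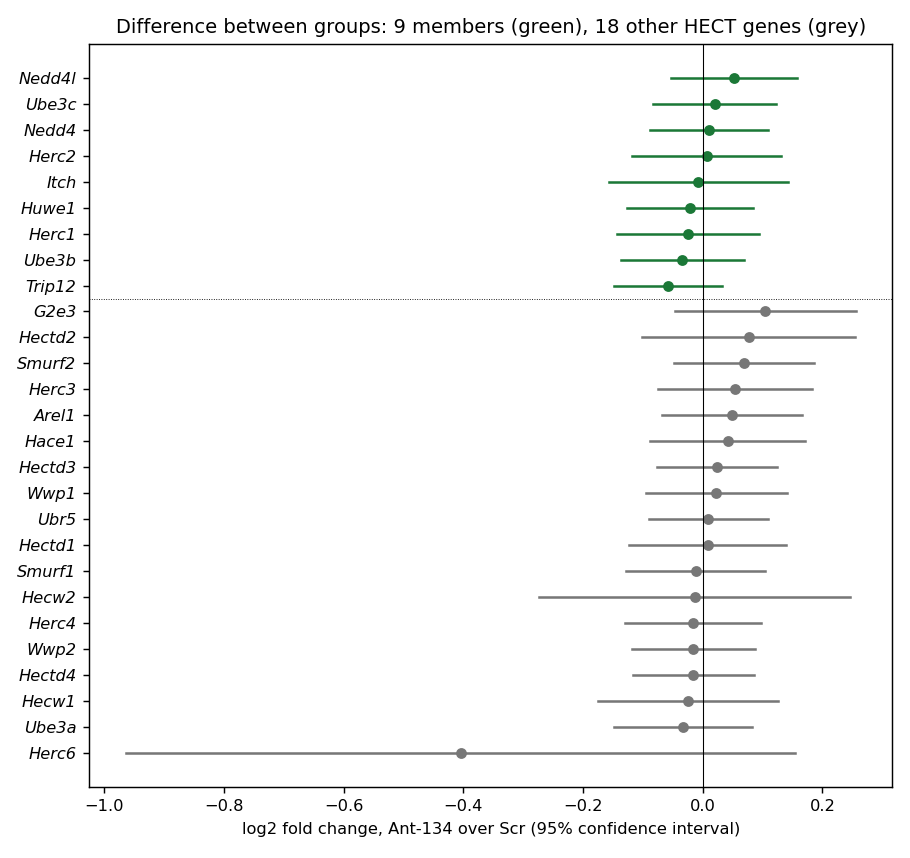
Log2 fold change of Ant-134 over Scr (horizontal axis) with its 95% confidence interval for the 9 ligases described here (green, upper block) and 18 other HECT genes including Ube3a (grey, lower block). All 27 intervals include 0, the green points lie between -0.058 and 0.052, and Herc6 has the widest interval.

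The 3 ligases with a miR-134 seed match had log2 fold changes of -0.0075 (Itch), 0.011 (Nedd4) and 0.020 (Ube3c). Those of the 6 without one ran from -0.058 to 0.052, so the former lay inside the span of the latter. No test was made of so few genes.

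Per length, in the deposited FPKM, Nedd4 was the most abundant of the 9, at 40.8 ± 1.67 FPKM (SD, n = 9, both groups). Ube3b followed at 21.98 ± 1.07, Herc2 at 16.8 ± 1.08 and Huwe1 at 14.6 ± 0.681 FPKM, and no mouse of any of these overlapped the next in order. Trip12 at 10.8 ± 0.408, Ube3c at 9.95 ± 0.469, Nedd4l at 9.45 ± 0.5001 and Herc1 at 8.22 ± 0.493 FPKM formed a series in which each gene's range overlapped that of the next. Itch was the lowest at 6.21 ± 0.503 FPKM, below every value of Herc1. In these mice, all with the maternal Ube3a deletion, each of the 9 exceeded Ube3a in mean FPKM. Ube3a stood at 4.38 ± 0.255 FPKM, in place 20 of the 27 HECT genes. Its place without the deletion cannot be read here, and its counts may include opposite-strand reads. The ratio to Ube3a in the same library ran from 1.42 for Itch to 9.34 for Nedd4.

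**Figure D3:**
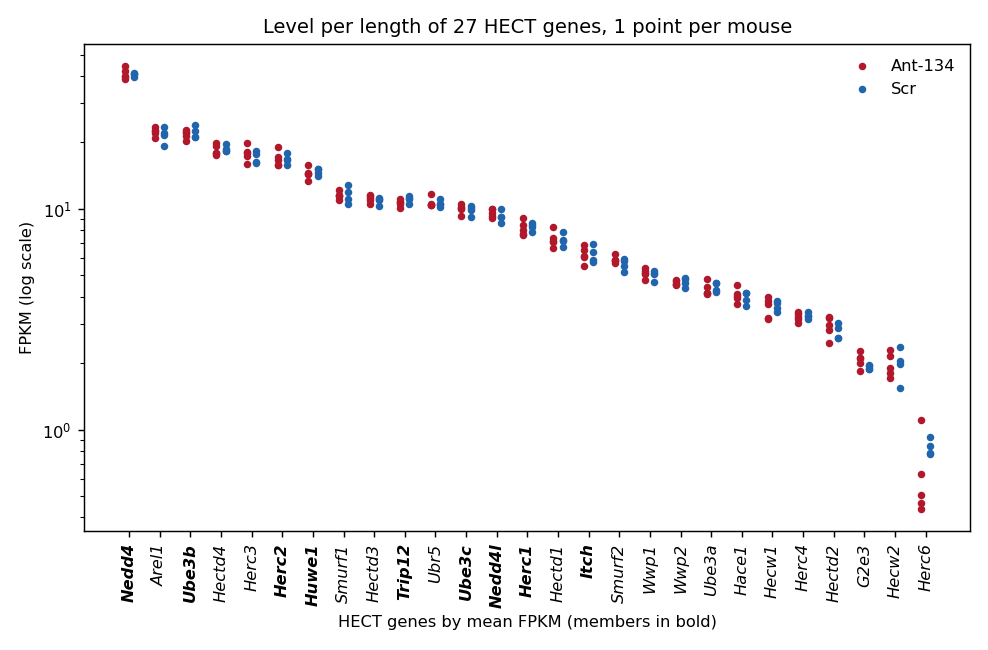
Deposited FPKM (vertical axis, log scale) of 27 HECT genes in order of their mean, with 1 point per mouse, Ant-134 in red and Scr in blue, and the 9 genes described here in bold. Nedd4 is highest at a mean of 40.8 FPKM, Herc6 is lowest at 0.720 FPKM, and the colours mix for each of the 9.

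This order rests on the gene length that the deposited table assigns, which was 1.02 (Ube3b) to 4.74 (Nedd4l) times the length of the annotated transcript with the longest coding sequence. Divided by that transcript in place of the deposited length, Nedd4 was still first at 82.2 ± 3.45 CPM per kilobase and Itch still last of the 9 at 11.5 ± 0.932. Nedd4l moved from place 7 to place 2 of the 9, at 45.2 ± 2.38 CPM per kilobase, on a transcript of 3034 bases of which 3012 are coding, which makes this value an upper reading. Herc2 moved from place 3 to place 7, at 18.01 ± 1.18. Ube3a, with its maternal deletion in every mouse, stood at 9.25 ± 0.551 CPM per kilobase, again in place 20 of 27 and below all 9.

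Between mice, apart from treatment, some of the 9 genes varied together. For each pair, Pearson's r was computed over the 9 mice from log2 CPM after the mean of each group was subtracted. Of the 36 pairs 34 were positive, with a median r of 0.59 and a range from -0.17 to 0.98. Ant-134 mouse 4 was above its group mean for all 9 genes, whereas Ant-134 mouse 5 was above it for 1 of 9, Nedd4l. By exact permutation with adjustment over the 36 pairs, 6 pairs passed 0.05 by Pearson's r and 6 by Spearman's rho, 5 of them in common. No pair with Nedd4l, Ube3b or Trip12 was among them. These permutations used all orders of the 9 mice. Deviations from group means are not freely exchangeable between groups, so the p values of correlations here and below are approximate and may be too small. How many pairs of other genes would pass was not computed.

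The tightest pair was that of the 2 large HERC genes. Herc1 and Herc2 lie on different chromosomes, and their deviations had r = 0.98 (exact permutation p = 1.65e-05, adjusted p = 5.95e-04) and rho = 0.97 (exact permutation p = 1.65e-04, adjusted p = 0.00298). Without the 2 mice farthest from the median, r was 0.95. Leaving out each mouse in turn gave r from 0.95 to 0.99. In log2 CPM, Herc1 deviated by -0.10, -0.028, 0.054, 0.17 and -0.090 in Ant-134 mice 1 to 5, and Herc2 by -0.093, -0.019, 0.030, 0.18 and -0.10. In Scr mice 1 to 4 the deviations were -0.0060, -0.073, 0.021 and 0.058 for Herc1 and -0.0010, -0.081, -0.0066 and 0.089 for Herc2. The sign was the same in 8 of 9 mice, the exception being Scr mouse 3.

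Ube3c and Huwe1 came next, with r = 0.91 (exact permutation p = 8.27e-05, adjusted p = 0.00149) and rho = 0.97 (exact permutation p = 1.65e-04, adjusted p = 0.00298), and with r = 0.85 without the 2 farthest mice. Itch followed both of them, with r = 0.88 to Huwe1 (exact permutation p = 0.00139, adjusted p = 0.0166; rho = 0.90) and r = 0.86 to Ube3c (exact permutation p = 0.00217, adjusted p = 0.0195; rho = 0.92). Huwe1 also passed with Herc2 (r = 0.84, adjusted exact permutation p = 0.0381) and with Nedd4 (r = 0.83, adjusted exact permutation p = 0.0448), although the latter did not by rho (rho = 0.67, adjusted exact permutation p = 0.177). Without the 2 farthest mice, r of Huwe1 was 0.52 to Herc2 and 0.33 to Nedd4. Herc2 with Ube3c passed by rho alone (rho = 0.85, adjusted exact permutation p = 0.0364; r = 0.60). For Nedd4l, r to the other 8 lay between -0.17 and 0.45.

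**Figure D4:**
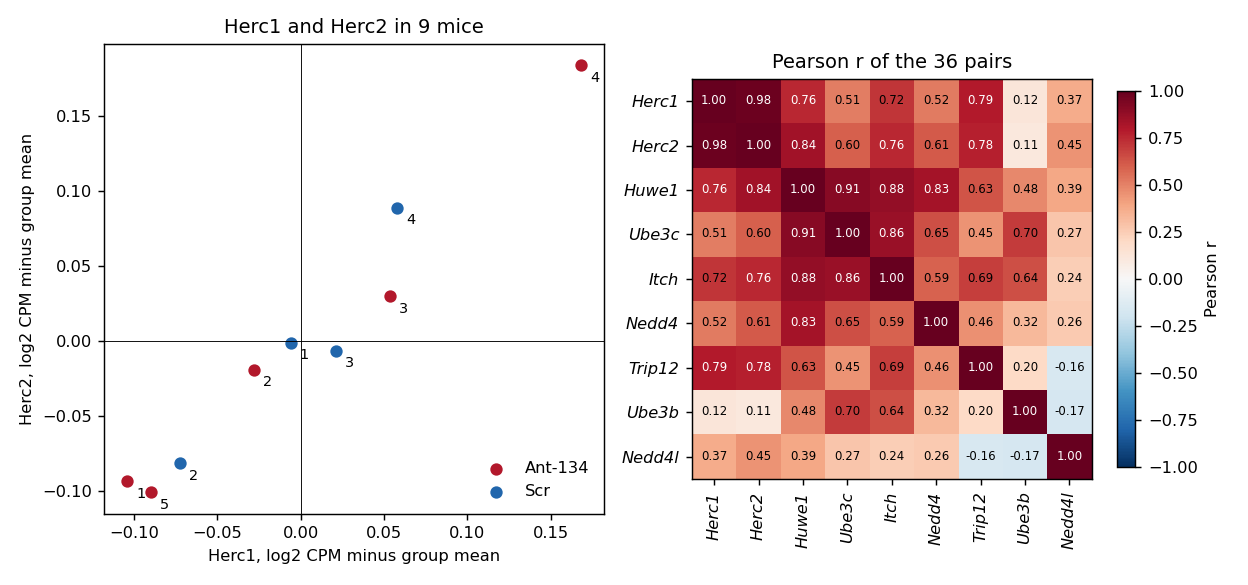
Left, deviation of Herc2 against deviation of Herc1 from the group mean, in log2 CPM, for 5 Ant-134 mice (red) and 4 Scr mice (blue) numbered by replicate; right, Pearson's r of each pair of the 9 genes over the same 9 mice, on a colour scale from -1 to 1. The mice line up along the diagonal from Ant-134 mice 1 and 5 to Ant-134 mouse 4, and the column of Nedd4l is the palest.

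The shared libraries move with this pattern. The median deviation of the longest 10% of tested genes (8983 bases or more) was highest in Ant-134 mouse 4, at 0.080 in log2 CPM, and lowest in Ant-134 mouse 5, at -0.055, the same mice that were high and low for the ligases. By deposited length 8 of the 9 ligases belong to this long set themselves, all but Ube3b with 5294 bases. Against this long-gene level, r over the 9 mice was 0.95 for Herc2 (adjusted exact permutation p = 0.00169), 0.93 for Huwe1 (0.00321), 0.91 for Herc1 (0.00337) and 0.86 for Itch (0.00337). It was 0.78 for Trip12 (adjusted exact permutation p = 0.0201) and 0.76 for Ube3c (0.0225), but 0.32 for Ube3b and 0.31 for Nedd4l (both 0.423). Without the 2 farthest mice r was 0.86 for Herc2, 0.79 for Itch, 0.75 for Herc1, 0.72 for Huwe1, 0.56 for Ube3c and 0.51 for Trip12. By Spearman's rho Trip12 did not pass (rho = 0.68, adjusted exact permutation p = 0.0755). For Nedd4, r was 0.73 with all mice and -0.23 without the 2 farthest, so that relation rests on those mice. After the long-gene level was removed from each gene, the median r of the 36 pairs was -0.0026, with a range from -0.68 to 0.89. Herc1 with Herc2, at 0.89, and Ube3c with Huwe1, at 0.84, were the highest of the 36 then as well. The other pairs that had passed by r were lower than before. Itch with Ube3c was at 0.63, Nedd4 with Huwe1 at 0.63, Itch with Huwe1 at 0.40 and Herc2 with Huwe1 at -0.36. What sets the long-gene level of a library was not tested.

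Because Herc1 and Herc2 moved together, a start of each gene is shown, from RefSeq for GRCm38.p6, each from 250 bases before to 50 bases after the annotated start on the plus strand. Capitals mark the GC box GGGCGG and the CCAAT box CCAAT, on either strand, and in Herc2 a CCAAT box and the GC box overlap.

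Herc1, chr9:66350200-66350499: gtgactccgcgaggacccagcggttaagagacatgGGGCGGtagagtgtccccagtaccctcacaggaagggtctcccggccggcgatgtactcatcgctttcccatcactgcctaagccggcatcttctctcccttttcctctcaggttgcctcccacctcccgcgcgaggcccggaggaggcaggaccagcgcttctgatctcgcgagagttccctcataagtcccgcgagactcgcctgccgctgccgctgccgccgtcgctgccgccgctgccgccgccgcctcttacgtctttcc

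Herc2, first of 2 starts, chr7:56049905-56050204: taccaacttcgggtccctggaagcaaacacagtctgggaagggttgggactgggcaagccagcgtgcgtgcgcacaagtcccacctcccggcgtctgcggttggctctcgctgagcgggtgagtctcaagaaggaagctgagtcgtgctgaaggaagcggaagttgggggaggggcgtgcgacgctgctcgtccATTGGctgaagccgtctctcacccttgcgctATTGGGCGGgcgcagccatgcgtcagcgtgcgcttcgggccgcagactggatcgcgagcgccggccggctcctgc

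Both windows shown were rich in CG, with 30 CpG in Herc1 and 29 in Herc2 against a median of 7 in the 32851 promoters of the table. Other ligases were rich in CG too, with 28 CpG in Ube3b, 31 in Huwe1, 37 in Trip12 and 53 in Ube3c. The 2 starts of Nedd4 held 35 and 13. Each of the 2 windows shown held 1 GC box, a motif found on either strand in 35.7% of all promoters. Ube3b held 5 GC boxes, Ube3c 3, Huwe1 1, Trip12 0 and the Nedd4 starts 2 and 0. Herc2 held 2 CCAAT boxes and Herc1 none, against 37.4% of promoters with at least 1. The second Herc2 start, chr7:56050139-56050438, which is not shown, held 0 CCAAT boxes, 3 GC boxes and 38 CpG. None of the 3 windows held the TATA box TATAAA (13.6% of promoters) or the cAMP response element core TGACGT (7.51%). These matches describe the letters of the windows, and no match says only that the letters are not there. Of the 9 ligases, 7 had promoters in the table, and Nedd4l and Itch had none there.

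For each ligase the tested gene whose deviations followed it most closely over the 9 mice was listed, out of 19781. These were Cnksr2 for Herc2 (r = 0.98), Hcfc1 for Trip12 (r = 0.98), Adar for Huwe1 (r = 0.98), Zfpm1 for Ube3b (r = 0.98), Tbcel for Ube3c (r = 0.97), Wipf2 for Itch (r = 0.97) and Trappc2 for Nedd4l (r = 0.94). For Herc1 it was AC119957.1, a gene of 238 bases (r = 0.98), and for Nedd4 the mitochondrial tRNA gene mt-Tg, of 68 bases (r = 0.96). The highest r among so many genes over 9 mice is a description with no test, and between 0.753% (Nedd4l) and 3.44% (Huwe1) of all genes had an r above 0.8 with the ligase.

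Of the other 18 HECT genes examined, 0 passed an unadjusted p of 0.05 in edgeR and 0 in DESeq2, with 10 above 0, 8 below and a median log2 fold change of 0.0087. Herc6 aside, they lay between -0.034 and 0.10. The 3 smallest p values belonged to Herc6, G2e3 and Smurf2. G2e3, a nuclear and nucleolar ligase, had a log2 fold change of 0.10 (SE 0.071, edgeR p = 0.162; exact permutation p = 0.111), and Smurf2, which targets components of TGF-beta signalling, one of 0.069 (SE 0.055, edgeR p = 0.228; exact permutation p = 0.206).

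Herc6, a small HERC ligase that in the mouse attaches the interferon-induced modifier ISG15, was the lowest of the family. Its levels were 10.4, 4.73, 4.38, 5.89 and 4.10 CPM in the Ant-134 mice and 7.90, 7.28, 8.74 and 7.38 CPM in the Scr mice. Ant-134 mouse 1 was the highest of all and the other 4 Ant-134 mice lay below every Scr mouse. The log2 fold change was -0.40 (SE 0.25), a change of -24.5% with a 95% interval from -48.8% to 11.3% (edgeR p = 0.138; exact permutation p = 0.127). Without Ant-134 mouse 1 it was -0.71 (adjusted p = 0.0789 over all genes in edgeR), and with the Y-linked level as a covariate it was -0.54 (adjusted p = 0.905 in edgeR). The fits that left out any 1 of the other 8 mice gave -0.44 to -0.30, and none of them passed the threshold before adjustment. The fit without Ant-134 mouse 1 and that with the covariate passed it, and Ant-134 mouse 1 was the only mouse outside the separation of the groups. The 6 microglial markers, all with a log2 fold change below 0 and 3 of them with an unadjusted p under 0.05, were lower in Ant-134 without overlap of their summed level, at 301 CPM in Ant-134 mouse 1. The 5 endothelial and the 4 meningeal fibroblast markers were also all below 0, the latter with 3 of 4 under an unadjusted p of 0.05. Ant-134 mouse 1 also had the highest summed level of choroid plexus markers (2564 CPM, against 67.4 to 677 CPM in the other Ant-134 mice) and of oligodendrocyte markers (10528 CPM), and it was 1 of the 3 libraries with a low Y-linked level. Scr mouse 3, the highest Scr mouse for Herc6, was second in choroid plexus markers (2024 CPM) and low in Y-linked level as well. Ant-134 mouse 4, the remaining library with a low Y-linked level (1.21 CPM), had the lowest choroid plexus sum (67.4 CPM) and Herc6 below every Scr mouse. The part of these cell types and of the Y-linked level in the values of Herc6 was not tested.

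**Figure D5:**
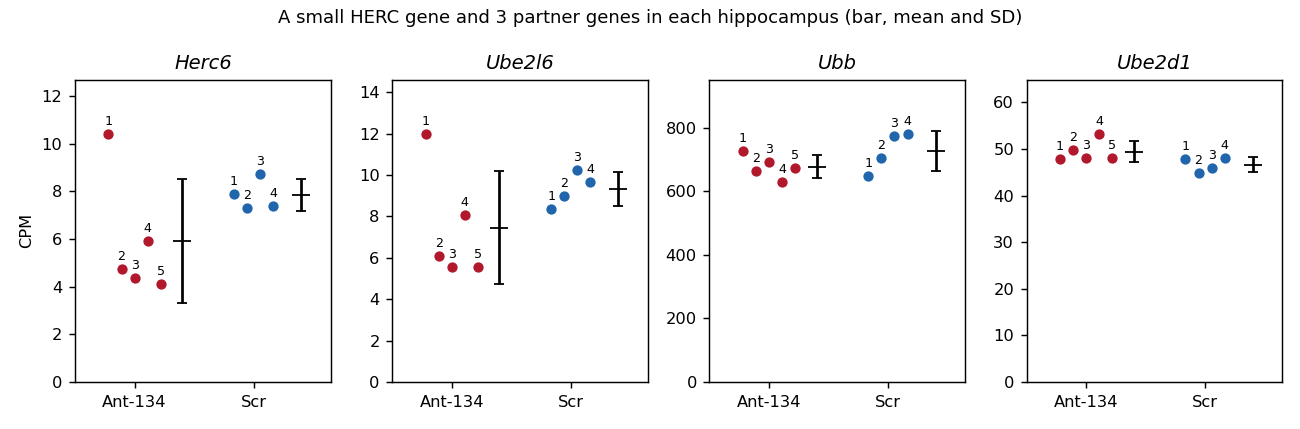
Level in CPM (vertical axes, starting at 0) of Herc6 and of 3 genes of the ubiquitin chain in each Ant-134 mouse (red) and Scr mouse (blue), numbered by replicate, with mean and SD beside the points. Ant-134 mouse 1 stands above all Scr mice for Herc6 and Ube2l6, while the other 4 Ant-134 mice stand below them.

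The enzymes, regulators and reported substrates that work with these ligases were read from a list of 30 genes. Here too edgeR called 0 at an unadjusted p of 0.05, and DESeq2 0, with 19 above 0, 11 below and a median log2 fold change of 0.016. Both activating enzymes, Uba1 and Uba6, which charge ubiquitin at the head of the chain, were above 0, at 0.034 (SE 0.044) and 0.081 (SE 0.080). The 6 adaptors of the Nedd4 family, Ndfip1, Ndfip2 and Arrdc1 to Arrdc4, lay between -0.034 and 0.060. The 8 reported substrates lay between -0.10 for Trp53 (SE 0.065) and 0.17 for Junb (SE 0.18). Neurl4, a partner protein of Herc2, was at -0.0029 (SE 0.039).

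The smallest p values of the 30 were those of Ubb, Ube2d1 and Trp53. Ubb, a polyubiquitin gene, measured 726, 662, 692, 628 and 674 CPM in Ant-134 and 646, 703, 774 and 779 CPM in Scr. Scr mice 1 and 2 lay within the range of the Ant-134 mice and the difference was -6.79% with a 95% interval from -14.6% to 1.67% (edgeR p = 0.105; exact permutation p = 0.206). Ube2d1, a conjugating enzyme that HECT ligases use, measured 47.8, 49.8, 48.1, 53.2 and 47.9 CPM in Ant-134 and 47.8, 44.8, 45.8 and 48.1 CPM in Scr. All 5 Ant-134 mice were above the Scr mean, and the log2 fold change was 0.082 (SE 0.049, edgeR p = 0.113; exact permutation p = 0.111). Trp53, which encodes p53, spanned 25.4 to 29.0 CPM in Ant-134 and 26.7 to 30.7 CPM in Scr (edgeR p = 0.133; exact permutation p = 0.159).

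Ube2l6, the conjugating enzyme of the ISG15 pathway, was singled out after its values were seen, because it shared the pattern of Herc6. It measured 11.97, 6.11, 5.55, 8.09 and 5.56 CPM in Ant-134 and 8.34, 9.01, 10.2 and 9.67 CPM in Scr. Again Ant-134 mouse 1 was the highest of all and the other 4 Ant-134 mice were below every Scr mouse. The log2 fold change was -0.32 (SE 0.22, edgeR p = 0.167, exact permutation p = 0.159). Without Ant-134 mouse 1 it was -0.56 (unadjusted p = 8.55e-04 and adjusted p = 0.222 over all genes in edgeR). With the Y-linked level as a covariate it was -0.44 (unadjusted p = 0.00745 and adjusted p = 0.941 in edgeR). Both of these fits passed the threshold before adjustment. Leaving out any 1 of the other 8 mice gave -0.37 to -0.23. The marker levels given beside Herc6 are of the same mice, and their part in Ube2l6 was not tested.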

How the data were processed

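Per the labels and the study's methods, the authors sequenced poly-A RNA of 1 hippocampus per mouse, mapped paired reads to GRCm38 (mm10) with HISAT2 2.0.5 and counted them per gene with featureCounts 1.5.0-p3; the submitters' processing notes also list CASAVA 1.8. The deposited counts are not normalized. The deposited FPKM equalled counts divided by the deposited gene length and the library total, times 1 constant per library (0.978 to 1.01); how the authors computed the FPKM, and whether counting used strand, is not given in the sources used here.

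Ant-134 and Scr were compared with edgeR 4.0.16 (R 4.3.3): filterByExpr with a minimum count of 10, TMM, and the quasi-likelihood test with robust estimation and no covariate, on 19782 of 54532 genes. The threshold was the study's, an unadjusted p of 0.05, beside Benjamini-Hochberg values over all genes tested. Intervals are 95%. Single genes were also tested by two-sided exact permutation. Pairs of genes were correlated over mice, with permutation p values added to what was planned as a description. Mice are the replicates, and the chi-square per gene between libraries of a group was 8.30 to 21.1, so none was a duplicate. The fits were tested on simulated data.

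The ligases, the other lists and the tests were chosen with earlier results of these data known. Named were the 9 ligases, Ube3a, list genes under the threshold or else the 3 with the smallest p per list, and the gene most correlated with each ligase. Alternatives were DESeq2 1.42.0, its size factors in edgeR, 2 other filters, no robust estimation, a replicate block, Y-linked and long-gene covariates, limma 3.58.1 on log2 FPKM with a pseudocount of 1 or 0.1, and leaving out each mouse. Chosen after seeing the data were lengths of coding transcripts and the checks of the 2 closest pairs. Figures used matplotlib 3.10.9.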

Additional observations from a re-analysis of the deposited data

Results flagged for a closer look

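Herc6 in Ant-134 mouse 1 stood far from the other mice of its group, at 10.4 CPM against 4.10 to 5.89 CPM in the other 4. The gap to the nearest mouse was 0.715 of the range of the group. In the same way 36 groups of values were examined, of which chance gives 1 in 20, or about 1.8, and this was the only one found.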

How the results depend on the processing

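The count of ligases that passed the threshold was 0 under all 20 alternatives, and the smallest p among their 180 values was 0.0775, for Nedd4l without Scr replicate 4. All 90 values from settings that kept all mice and used no replicate block, and from DESeq2 or limma, kept their sign. The paper calls the Scr mice littermates, but whether the replicate numbers pair mice is not given in the sources used here. Same-numbered mice had correlations of -0.12, -0.10, -0.094 and 0.13, and differently numbered mice -0.29 to 0.27. These values cannot exclude a pairing. With the replicate block 808 genes passed, with Itch at 0.036 and Huwe1 at 0.0055, both reversed. Leaving out 1 mouse gave log2 fold changes from -0.070 to 0.00069 for Herc1, from -0.043 to 0.038 for Herc2, from -0.021 to 0.031 for Nedd4, from -0.049 to 0.044 for Itch, from -0.014 to 0.048 for Ube3c and from -0.055 to 0.0058 for Huwe1, each of which changed sign in at least 1 fit. Without a change of sign, Nedd4l ranged from 0.020 to 0.094, Ube3b from -0.056 to -0.0015 and Trip12 from -0.079 to -0.038. Ube3a ranged from -0.076 to -0.011, also without a change of sign. Ube3c was above Nedd4l without Ant-134 mouse 5 and with the replicate block, and Ube3b was below Trip12 without Scr mouse 3 and without Scr mouse 4. Over all genes 1775 passed without a filter and 1561 in limma without a minimum FPKM, where more genes were tested, and leaving out 1 mouse gave 629 to 973. The other HECT genes gave 1 call (Herc6) with the Y-linked covariate and 0 to 1 on leaving out a mouse (Herc6 without Ant-134 mouse 1). The partner genes gave 1 call without a filter (Ubb), 1 with the Y-linked covariate (Ube2l6) and 0 to 1 on leaving out a mouse, namely Ube2l6 without Ant-134 mouse 1, Ubb without Scr mouse 1 and Rps27a without Scr mouse 4. The causes were not tested. PCR duplicates cannot be recognised in these counts, so counting errors are lower bounds.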
